A study of Rattus norvegicus with 15 samples.

Results

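The complement and coagulation list holds 37 rat genes, most of them for plasma proteins that hepatocytes secrete, and 33 of the 37 were measured among 14506 genes tested. Members were matched by gene symbol in the array annotation, through probe sets that carried 1 symbol, and a gene with several probe sets was read from the one of highest mean over the 15 arrays. F9 and C5 had no entry in that annotation and C2 and Cfb shared 1 probe set, so these 4 members are not analysed here. The measured members were 12 clotting genes, 3 fibrinolysis genes, 5 inhibitors and 13 complement genes. Kng1 was the only member with several probe sets (2), and because the rat kininogens are a family of closely related genes its level is uncertain.

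Expression was read on 1 Affymetrix rat gene array for each of 15 biochips, small perfused culture chambers, that held freshly isolated primary rat hepatocytes. Cells attached for 24 h and were then perfused at 25 µl/min for 24 h with 100 µM flutamide (n = 4 biochips), with 10 µM flutamide (n = 6) or with the solvent DMSO alone (n = 5). Flutamide is a nonsteroidal antiandrogen drug with known liver toxicity. The titles number the biochips 10 to 16, here called run 1, and 20 to 27, here called run 2. Run 1 held 2 biochips at 100 µM (15 and 16), 3 at 10 µM (12 to 14) and 2 with DMSO (10 and 11). Run 2 held 2 at 100 µM (26 and 27), 3 at 10 µM (23 to 25) and 3 with DMSO (20 to 22). The labels do not say what the number runs stand for, nor whether each biochip had its own animal or isolation. The p-values therefore speak of array-to-array spread alone, which may be technical. Where a fit of the doses over both runs has no run term, that spread also holds differences between the number runs.

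Clotting is a chain of proteases that ends with thrombin cutting fibrinogen into fibrin, while plasmin dissolves the fibrin clot and circulating inhibitors hold both chains in check. Complement is a related chain of plasma proteases and binding proteins that tags microbes and builds the membrane attack complex. Hepatocytes make most of these proteins, under liver transcription factors such as HNF1, HNF4 and the C/EBP family and, for many of them, under the acute phase signal of interleukin-6. In cultured primary hepatocytes the level of such transcripts is widely used as a sign of retained liver identity.

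All values are log2 expression levels as deposited, and a change is a difference of group means on that scale from limma, with Benjamini-Hochberg adjustment over all genes and a call at an adjusted p under 0.05. No gene was called at 100 µM against DMSO (lowest adjusted p 0.337), with 466 genes higher and 468 lower at an unadjusted p under 0.05. Likewise 0 genes were called at 10 µM against DMSO (lowest adjusted p 0.163), with 501 higher and 508 lower at the unadjusted threshold. Biochips 23, 15 and 24 stood apart, with array quality weights of 0.208, 0.462 and 0.582, and biochip 23 correlated with the others at a median of 0.962. The 10 hepatocyte markers had mean levels between 7.87 (Cps1) and 12.9 (Alb), against 3.86 to 5.80 for 7 endothelial markers and 4.44 (Adgre1) to 9.64 (Cd14) for 11 Kupffer and macrophage markers. These are levels of bulk RNA, in which fewer cells of a type and less RNA per cell cannot be told apart.

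Most members lay below DMSO at 100 µM, and about as many lay above as below at 10 µM. At 100 µM, 7 of 33 members were above and 26 below the DMSO mean, where 55.7% of all genes were above and 44.3% below. The median log2 change of the members was -0.12, and that of all genes was 0.02. By array, the median deviation of the members from the DMSO means was -0.22 on biochip 15, -0.14 on biochip 26 and -0.28 on biochip 27. On biochip 16, the 100 µM array of run 1 that did not stand apart, it was 0.003. On the DMSO arrays it ran from -0.10 to 0.09. The share of genes below DMSO depended on level: among the 7253 brighter genes 55.8% were below, and among the 31 members in that set 24 were below. No member passed the adjusted test at 100 µM, and at an unadjusted p under 0.05 limma gave 2 members above DMSO (Plg and Vtn; 3.21% of all genes) and 7 below (F5, F7, F13b, Serpinf2, C8a, Cfi and Mbl2; 3.23% of all genes). Among the brighter genes the same 7 members met that threshold, where the share of all such genes was 4.45%.

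Without biochips 15, 23 and 24 the split at 100 µM was 8 above and 25 below (53.0% and 47.0% of all genes), and 0 members passed the adjusted test. This leaves 100 µM with biochip 16 of run 1 and 26 and 27 of run 2. It leaves 10 µM with biochips 12 to 14 of run 1 and 25 of run 2. The fit of the doses has no run term, so without these arrays the dose is partly tied to the number run. At an unadjusted p under 0.05 there were again 2 above, Plg and Vtn (3.85% of all genes). There were 7 below, of which F5, Serpinf2, Cfi and Mbl2 were also in the full set of arrays and Fga, Klkb1 and C4bpb were not (3.53% of all genes). F7, F13b and C8a did not meet the unadjusted threshold without these arrays.

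**Figure D1:**
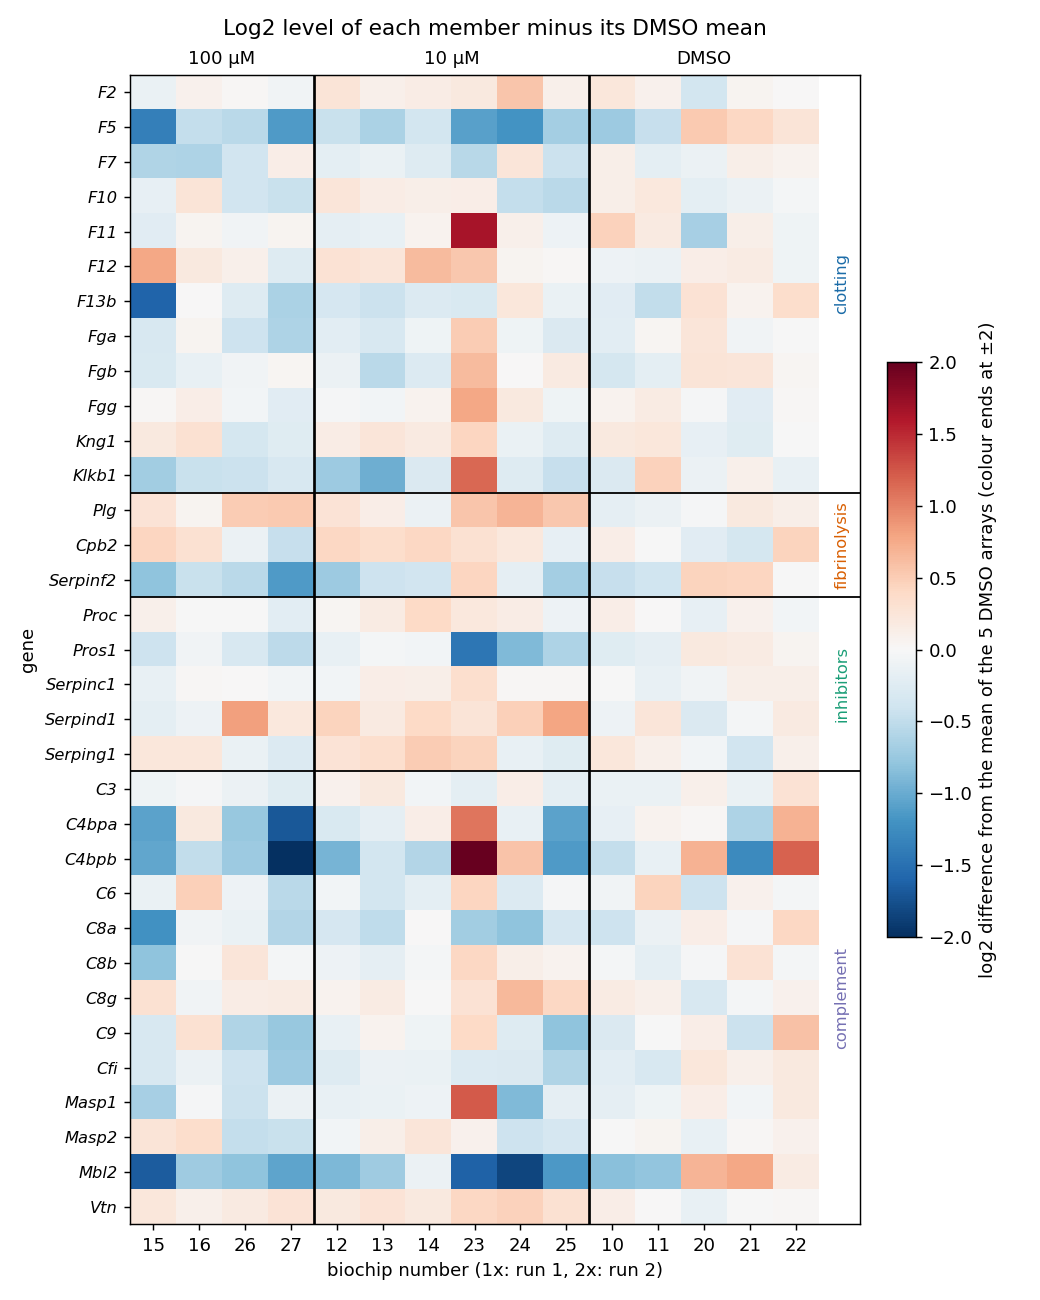
Log2 level of each of the 33 members (rows, by role) on each of the 15 arrays (columns, 100 µM left, 10 µM in the middle, DMSO right), as the difference from the mean of the 5 DMSO arrays; colour ends at ±2. F5 and Mbl2 are pale to dark blue on the flutamide arrays and on DMSO biochips 10 and 11 and red on DMSO biochips 20 to 22, and biochip 23 is red for most clotting genes.

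At 10 µM, 15 members lay above and 18 below the DMSO mean, where 49.1% of all genes were above and 50.9% below. Among the 7253 brighter genes 55.8% were below at this dose. The median log2 change was -0.01, and that of all genes was -0.00. No member passed the adjusted test, and at an unadjusted p under 0.05 there were 5 above (F2, Plg, Serpind1, C8g and Vtn; 3.45% of all genes) and 5 below (F5, Pros1, C8a, Cfi and Mbl2; 3.5% of all genes). Both flutamide groups were set against the same 5 DMSO arrays, so F5, C8a, Cfi, Mbl2, Plg and Vtn appearing in both comparisons is not independent. Without biochips 15, 23 and 24, F12, Serpind1 and Vtn were above (5.8% of all genes) and Klkb1 and Serpinf2 below (4.36% of all genes) at that threshold. Of the 10 µM arrays then left, only biochip 25 was of run 2. Within run 1 the changes at 10 µM were 0.49 for F12, 0.27 for Serpind1, 0.16 for Vtn, -0.74 for Klkb1 and -0.07 for Serpinf2. Biochip 23 had the highest median deviation of the members, 0.40 above the DMSO means, where the other 10 µM arrays lay between -0.19 and 0.01.

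**Figure D2:**
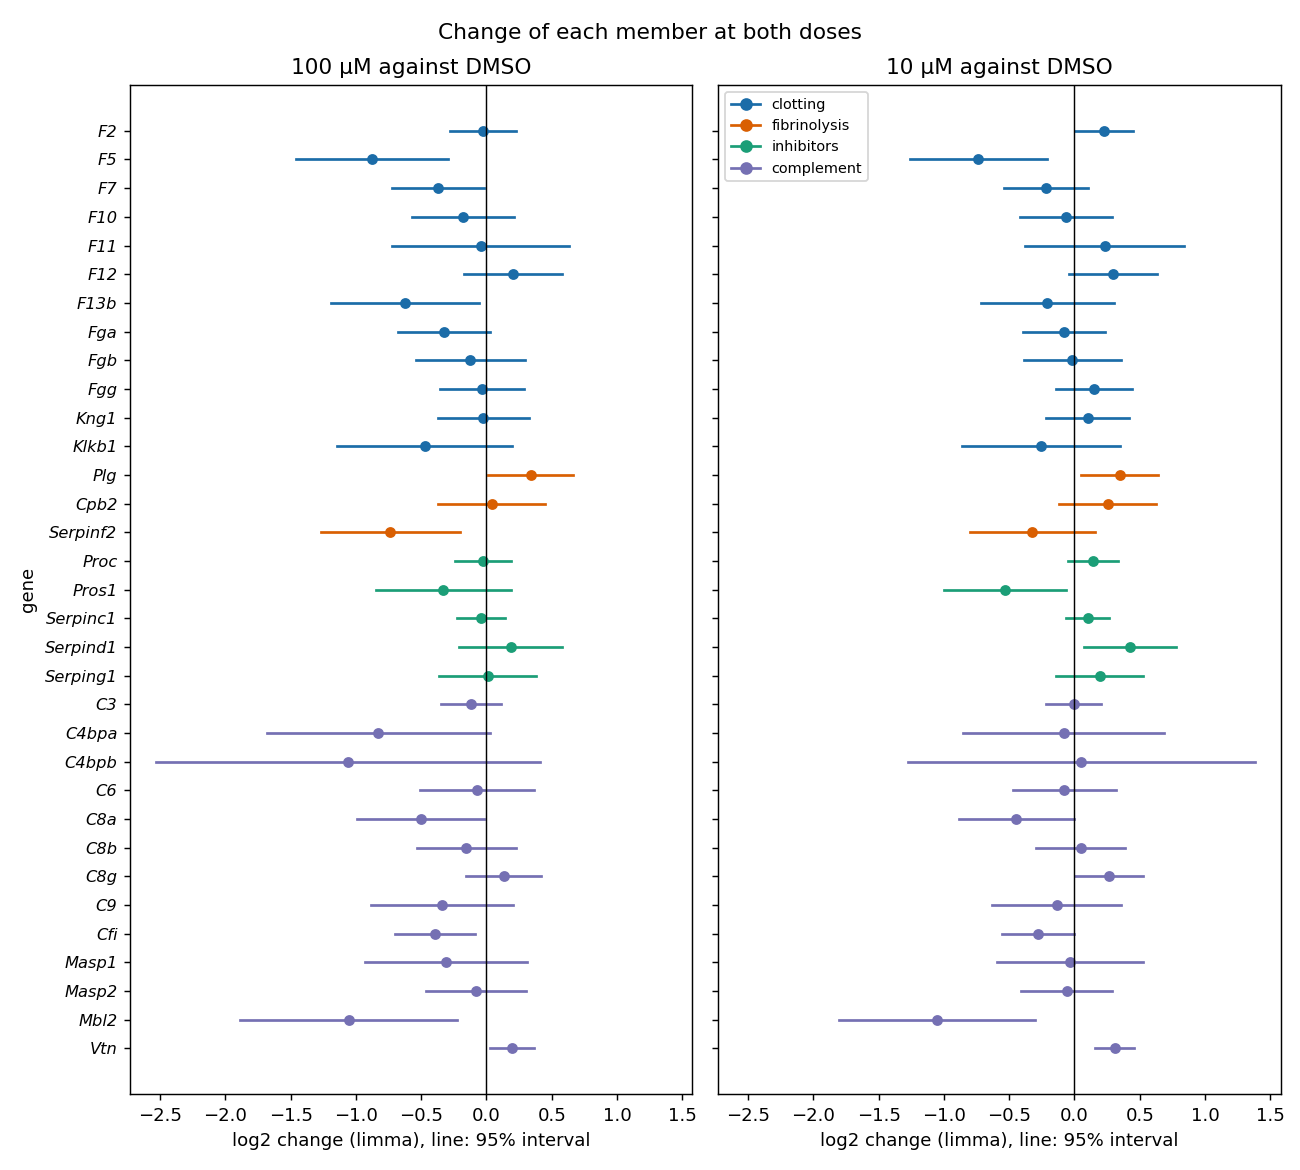
Log2 change of each member (points) with its 95% interval from limma (lines), 100 µM against DMSO on the left and 10 µM against DMSO on the right, coloured by role. C4bpb, Mbl2 and F5 lie farthest below 0 at 100 µM, and Mbl2 and F5 at 10 µM.

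Of the 12 clotting genes, 11 lay below DMSO at 100 µM, with a median log2 change of -0.15, and 7 of 12 at 10 µM, with a median of -0.04. F5, the cofactor that speeds the conversion of prothrombin, had levels of 6.78, 7.67, 7.62 and 7.01 on the 100 µM biochips 15, 16, 26 and 27. On the 10 µM arrays its lowest, median and highest levels were 6.95, 7.49 and 7.78, and on the DMSO biochips 10, 11, 20, 21 and 22 its levels were 7.41, 7.70, 8.66, 8.56 and 8.41. The 3 DMSO arrays of run 2 lay above every flutamide array, and the 2 DMSO arrays of run 1 lay among them. The log2 change was -0.88 at 100 µM (SE 0.27, adjusted p = 0.738) and -0.74 at 10 µM (SE 0.25, adjusted p = 0.524). Within run 1 the changes were -0.33 at 100 µM and 0.11 at 10 µM, and within run 2 they were -1.23 and -1.38. Without biochips 15, 23 and 24 they were -0.72 and -0.53.

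F13b, the carrier subunit of the factor that cross-links fibrin, had levels of 6.64, 8.24, 7.97 and 7.59 at 100 µM. Its lowest, median and highest levels at 10 µM were 7.81, 7.95 and 8.45, and with DMSO it had 8.01, 7.74, 8.52, 8.30 and 8.59. The lowest value at 100 µM was that of biochip 15, and the other 3 arrays of that dose lay within the range of all DMSO arrays or just under it. In run 2 both 100 µM arrays lay below every DMSO array, with a log2 change of -0.69, and within run 1 the change was -0.44. The log2 change at 100 µM was -0.62 (SE 0.26, adjusted p = 0.745), and without biochips 15, 23 and 24 it was -0.30. At 10 µM it was -0.21 (SE 0.24, adjusted p = 0.938).

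F2, the prothrombin gene, had levels of 9.31, 9.53, 9.47 and 9.38 at 100 µM. At 10 µM its lowest, median and highest levels were 9.54, 9.62 and 10.00, and with DMSO it had 9.67, 9.53, 9.08, 9.51 and 9.45. Every 10 µM array lay above every 100 µM array, and both groups overlapped DMSO. The log2 change was -0.03 at 100 µM (SE 0.12, adjusted p = 0.983) and 0.23 at 10 µM (SE 0.11, adjusted p = 0.716). The difference of 100 µM from 10 µM was -0.25 (SE 0.11, adjusted p = 0.963).

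The 3 fibrinogen chains, which make up the clot itself, did not pass the test at either dose. Fga had 11.00, 11.37, 10.91 and 10.71 at 100 µM, a lowest, median and highest of 11.00, 11.17 and 11.84 at 10 µM, and 11.11, 11.36, 11.56, 11.26 and 11.31 with DMSO. Its log2 change was -0.32 at 100 µM (SE 0.16, adjusted p = 0.787) and -0.08 at 10 µM (SE 0.15, adjusted p = 0.975). Of the 4 arrays at 100 µM, 3 lay below the lowest DMSO array and biochip 16 lay inside the DMSO range. Fgb had 11.54, 11.70, 11.77 and 11.89 at 100 µM, a lowest, median and highest of 11.31, 11.80 and 12.48 at 10 µM, and 11.50, 11.66, 12.11, 12.09 and 11.88 with DMSO. Fgg had 11.91, 12.02, 11.83 and 11.67 at 100 µM, a lowest, median and highest of 11.81, 11.91 and 12.66 at 10 µM, and 11.96, 12.05, 11.87, 11.67 and 11.91 with DMSO. Both genes overlapped DMSO at each dose, and biochip 23 gave the highest level of all 3 chains. The log2 changes at 100 µM were -0.12 for Fgb (SE 0.20, adjusted p = 0.933) and -0.03 for Fgg (SE 0.15, adjusted p = 0.982). At 10 µM they were -0.01 for Fgb (SE 0.18, adjusted p = 0.999) and 0.15 for Fgg (SE 0.14, adjusted p = 0.910).

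No gene of the contact and tissue factor branches passed the test. F7, the protease that tissue factor activates, averaged 6.48 ± 0.35 at 100 µM (SD, n = 4) and 6.85 ± 0.15 with DMSO (SD, n = 5), a log2 change of -0.37 (SE 0.17, adjusted p = 0.760). F12, the protease that starts contact activation, was the 1 clotting gene above DMSO at 100 µM, with a log2 change of 0.21 (SE 0.18, adjusted p = 0.868), which was 0.02 without biochips 15, 23 and 24. F10, the protease that makes thrombin, F11 and Kng1 had log2 changes of -0.18, -0.04 and -0.02 at 100 µM.

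Klkb1, the plasma prekallikrein gene, was the only member whose 100 µM arrays all lay below DMSO (0.931% of all genes did so), and it is named here because of that. No member had all 4 arrays above (1.13% of all genes). Klkb1 had the lowest mean level of the 33 members, 5.23, which was below the median of every array. The Klkb1 levels were 4.77, 5.01, 5.03 and 5.15 at 100 µM and 5.17, 5.93, 5.35, 5.57 and 5.31 with DMSO. The highest 100 µM array and the lowest DMSO array lay next to each other, and the log2 change of -0.47 did not pass the test (SE 0.31, adjusted p = 0.820). At 10 µM its lowest, median and highest levels were 4.49, 5.09 and 6.61, the last on biochip 23, and the log2 change was -0.26 with all arrays and -0.61 without biochips 15, 23 and 24.

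The 3 fibrinolysis genes had changes of both signs, with a median log2 change of 0.04 at 100 µM and 0.25 at 10 µM. The median at 100 µM was 0.31 within run 1 and -0.24 within run 2. Plg, the precursor of plasmin, had levels of 9.17, 8.94, 9.40 and 9.42 at 100 µM, a lowest, median and highest of 8.78, 9.30 and 9.57 at 10 µM, and 8.71, 8.77, 8.87, 9.10 and 9.02 with DMSO. Within each run both 100 µM arrays lay above every DMSO array, and over both runs the groups overlapped. Plg differed from DMSO by 0.34 at 100 µM (SE 0.15, adjusted p = 0.760) and 0.35 at 10 µM (SE 0.14, adjusted p = 0.627). With the number run as a block the changes were 0.38 at both doses, with adjusted p = 0.510 at 100 µM (SE 0.09) and adjusted p = 0.285 at 10 µM (SE 0.08). Without biochips 15, 23 and 24 they were 0.36 at 100 µM and 0.21 at 10 µM.

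Serpinf2, the antiplasmin that blocks plasmin, had levels of 7.42, 7.78, 7.68 and 7.09 at 100 µM, a lowest, median and highest of 7.50, 7.83 and 8.66 at 10 µM, and 7.76, 7.82, 8.68, 8.66 and 8.21 with DMSO. The 2 DMSO arrays of run 1 lay close to the highest 100 µM arrays, and the 3 of run 2 lay well above them. The log2 change was -0.73 at 100 µM (SE 0.25, adjusted p = 0.738), with -0.19 within run 1 and -1.13 within run 2. At 10 µM it was -0.32 (SE 0.22, adjusted p = 0.850). Cpb2, the carboxypeptidase that slows fibrinolysis, had log2 changes of 0.04 at 100 µM (SE 0.19, adjusted p = 0.983) and 0.25 at 10 µM (SE 0.17, adjusted p = 0.845).

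The 5 inhibitors had a median log2 change of -0.03 at 100 µM and 0.14 at 10 µM. Serpinc1, the antithrombin gene, was among the steadiest members, with 9.94, 10.11, 10.10 and 10.04 at 100 µM, a lowest, median and highest of 10.04, 10.17 and 10.43 at 10 µM, and 10.08, 9.95, 10.02, 10.21 and 10.20 with DMSO. The groups overlapped almost wholly, and the log2 changes of -0.04 at 100 µM (SE 0.09, adjusted p = 0.955) and 0.10 at 10 µM (SE 0.08, adjusted p = 0.874) were within the spread of the arrays. The 95% interval of its change at 100 µM ran from -0.23 to 0.14.

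Serpind1, heparin cofactor II, had 6.45, 6.55, 7.47 and 6.86 at 100 µM, a lowest, median and highest of 6.83, 7.07 and 7.43 at 10 µM, and 6.55, 6.89, 6.36, 6.60 and 6.83 with DMSO. At 10 µM 5 of 6 arrays lay above every DMSO array, while 3 of the 4 arrays at 100 µM lay within the DMSO range and biochip 26 above it. Its log2 change was 0.19 at 100 µM (SE 0.18, adjusted p = 0.896) and 0.43 at 10 µM (SE 0.17, adjusted p = 0.612). At 100 µM it was -0.22 within run 1 and 0.57 within run 2, and without biochip 26 it was -0.03.

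Pros1, protein S, the cofactor of activated protein C, had 8.29, 8.63, 8.38 and 8.19 at 100 µM, a lowest, median and highest of 7.26, 8.32 and 8.67 at 10 µM, and 8.46, 8.53, 8.90, 8.87 and 8.76 with DMSO. The lowest level was that of biochip 23, and the 10 µM arrays of run 1 lay within the DMSO range. Pros1 differed from DMSO by -0.33 at 100 µM (SE 0.24, adjusted p = 0.840) and -0.53 at 10 µM (SE 0.22, adjusted p = 0.632), and at 10 µM it was -0.21 without biochips 15, 23 and 24. Serping1, the C1 inhibitor of complement and contact proteases, had 10.58, 10.58, 10.21 and 10.07 at 100 µM, a lowest, median and highest of 10.11, 10.66 and 10.86 at 10 µM, and 10.57, 10.46, 10.30, 9.97 and 10.46 with DMSO. Its groups overlapped, with log2 changes of 0.01 at 100 µM (SE 0.17, adjusted p = 0.993) and 0.19 at 10 µM (SE 0.16, adjusted p = 0.887). Proc, the protein C gene, had log2 changes of -0.03 at 100 µM (SE 0.10, adjusted p = 0.978) and 0.14 at 10 µM (SE 0.09, adjusted p = 0.827).

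Complement had the lowest median of the 4 roles over all arrays, with 11 of 13 below DMSO at 100 µM and a median log2 change of -0.31, and with 9 of 13 below at 10 µM and a median of -0.06. The median at 100 µM was -0.02 within run 1 and -0.44 within run 2. Kupffer cells and macrophages also make some complement proteins, and 10 of their 11 markers lay below DMSO at 100 µM, with a median log2 change of -0.36. The mean level of that marker list ran from 5.83 to 6.30 on the 100 µM arrays, from 5.82 to 7.24 on the 10 µM arrays and from 6.05 to 6.86 on the DMSO arrays, and its part in the complement values was not tested. Cd68 was the marker that lay above DMSO, with a log2 change of 1.32 (SE 0.62, adjusted p = 0.774), which was 0.31 within run 1 and 1.80 within run 2. Within run 1, Aif1 (0.16), Marco (0.16) and Csf1r (0.11) also lay above DMSO at 100 µM, and within run 2 Lyz2 (0.17) did. Vsig4 and Cd163 lay lowest within run 2, at -2.23 and -1.89, and had -0.04 and -0.11 within run 1.

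Mbl2, mannose-binding lectin, which starts the lectin pathway, had levels of 6.37, 7.33, 7.23 and 6.99 at 100 µM. Its lowest, median and highest levels at 10 µM were 6.20, 7.01 and 7.92, and with DMSO it had 7.20, 7.25, 8.71, 8.82 and 8.21. The DMSO arrays of run 2 lay above every other array, while those of run 1 lay among the flutamide arrays. The log2 change was -1.06 at 100 µM (SE 0.39, adjusted p = 0.738) and -1.05 at 10 µM (SE 0.35, adjusted p = 0.524). Without biochips 15, 23 and 24 the changes were -0.85 and -0.72.

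In run 2 fitted alone, Mbl2 was the 1 member that passed the adjusted test, at 10 µM, among 6 genes called lower (0.0414% of all genes), with a log2 change of -2.07 (SE 0.22, adjusted p = 0.0432). Its 10 µM arrays in run 2 had 6.42, 6.20 and 6.89 on biochips 23, 24 and 25, and 2 of these 3 arrays are among those that stood apart. Biochip 25, which did not, also lay below the 3 DMSO arrays of run 2. Within run 1 the change at 10 µM was 0.24 (SE 0.32, adjusted p = 0.943). The difference between the runs in the change at 10 µM was -2.31 (SE 0.41, adjusted p = 0.108), so it was not called over all arrays, and with arrays weighted by quality it was -2.33 (SE 0.38, adjusted p = 0.0359).

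Cfi, factor I, the protease that inactivates the active fragments of C3 and C4, had 10.01, 10.22, 9.92 and 9.61 at 100 µM, a lowest, median and highest of 9.73, 10.06 and 10.22 at 10 µM, and 10.12, 10.02, 10.56, 10.43 and 10.52 with DMSO. The 3 DMSO arrays of run 2 lay above every flutamide array. Cfi differed from DMSO by -0.39 at 100 µM (SE 0.14, adjusted p = 0.738) and -0.28 at 10 µM (SE 0.13, adjusted p = 0.715). Within run 1 the changes were 0.04 and 0.09, and within run 2 they were -0.74 and -0.56.

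Vtn, vitronectin, which binds and blocks the assembling membrane attack complex, had levels of 10.80, 10.67, 10.76 and 10.84 at 100 µM, a lowest, median and highest of 10.77, 10.86 and 11.03 at 10 µM, and 10.70, 10.58, 10.42, 10.56 and 10.60 with DMSO. Every 10 µM array lay above every DMSO array, which 0.414% of all genes did and no other member. No member lay wholly below DMSO at this dose (0.221% of all genes). For Vtn, biochip 16 was the 1 array at 100 µM that did not clear the highest DMSO array. The log2 change was 0.31 at 10 µM (SE 0.07, adjusted p = 0.299), a 1.24-fold higher level, and 0.20 at 100 µM (SE 0.08, adjusted p = 0.738). The change at 10 µM was 0.16 within run 1 and 0.44 within run 2, and it was 0.24 without biochips 15, 23 and 24. In that setting the Vtn groups did not overlap (1.88% of all genes). This is no separate check, since leaving arrays out of groups that do not overlap cannot make them overlap.

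C3, on which all complement pathways meet, had 11.52, 11.58, 11.48 and 11.36 at 100 µM, a lowest, median and highest of 11.40, 11.62 and 11.80 at 10 µM, and 11.47, 11.48, 11.70, 11.48 and 11.89 with DMSO. Its groups overlapped, with log2 changes of -0.12 at 100 µM (SE 0.11, adjusted p = 0.889) and -0.01 at 10 µM (SE 0.10, adjusted p = 0.999). Masp2, the lectin pathway protease that cuts C4, had 8.48, 8.57, 7.75 and 7.77 at 100 µM, a lowest, median and highest of 7.80, 8.24 and 8.47 at 10 µM, and 8.21, 8.27, 8.07, 8.24 and 8.30 with DMSO. Its 100 µM arrays lay above the DMSO arrays in run 1 and below them in run 2, so that the log2 change of -0.08 (SE 0.18, adjusted p = 0.963) averages changes of 0.28 and -0.44. Masp1, the other lectin pathway protease, had a log2 change of -0.31 at 100 µM (SE 0.29, adjusted p = 0.889).

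The 2 chains of C4b-binding protein, an inhibitor of the classical pathway, are named after their values were seen, because of their wide spread. C4bpb averaged 8.02 ± 0.66 at 100 µM (SD, n = 4), 9.13 ± 1.46 at 10 µM (SD, n = 6) and 9.08 ± 0.97 with DMSO (SD, n = 5). C4bpa averaged 8.88 ± 0.79, 9.63 ± 0.70 and 9.71 ± 0.48 in the same groups. Both chains were highest on biochip 23, at 11.85 and 10.78, and lowest on biochip 27, at 7.09 and 8.02. Their log2 changes at 100 µM of -1.06 for C4bpb (SE 0.69, adjusted p = 0.819) and -0.83 for C4bpa (SE 0.40, adjusted p = 0.778) were smaller than the range over the DMSO arrays.

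The genes of the membrane attack complex had changes of both signs. C8a had log2 changes of -0.50 at 100 µM (SE 0.23, adjusted p = 0.760) and -0.44 at 10 µM (SE 0.21, adjusted p = 0.715). Its partner C8g had 0.13 at 100 µM (SE 0.13, adjusted p = 0.896) and 0.26 at 10 µM (SE 0.12, adjusted p = 0.710), and C8b had -0.15 and 0.05. C9, which forms the pore, had -0.34 at 100 µM and -0.14 at 10 µM, and C6 had -0.07 and -0.08. Whether these members differed from each other was not tested.

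**Figure D3:**
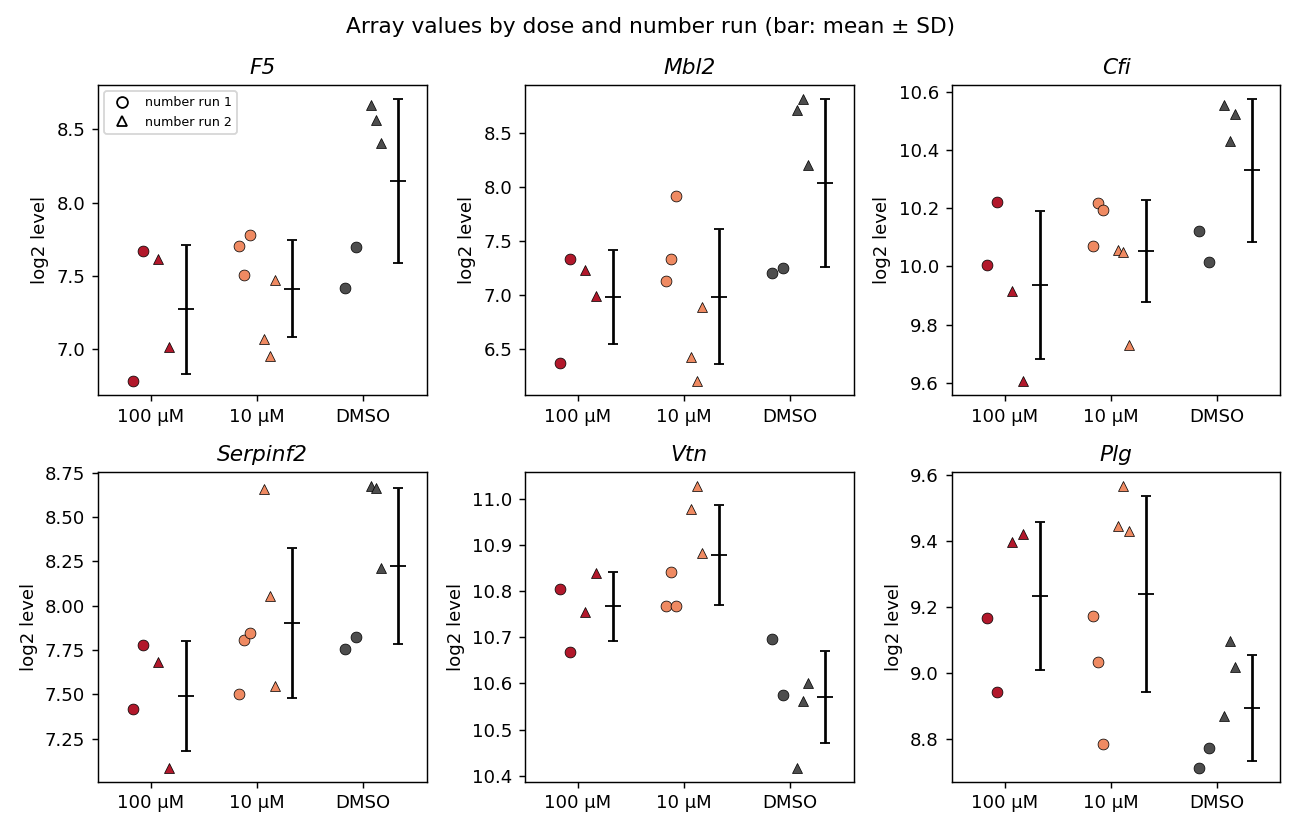
Log2 level of F5, Mbl2, Cfi, Serpinf2, Vtn and Plg on every array (points; circles are run 1, triangles run 2) at 100 µM, 10 µM and DMSO from left to right, with the mean and SD of each group (bars). In F5, Mbl2 and Cfi the 3 DMSO triangles stand above the 2 DMSO circles, and the Vtn points at 10 µM all stand above DMSO.

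The bases just before the transcription start are shown for the pair of members named by rule with the most negative change at both doses, F5 and Mbl2, and for the pair above DMSO in both runs at both doses, Vtn and Plg. They are RefSeq sequences of assembly GRCr8, 250 bases ending at the base before the annotated start, 5′ to 3′ along the gene, at chr13:79046407-79046656 on the plus strand for F5, chr1:237430793-237431042 plus for Mbl2, chr10:63892532-63892781 plus for Vtn and chr1:50915407-50915656 minus for Plg. Capitals mark matches, on either strand, to 4 short motifs: the HNF1 motif GTTAAT, the HNF4 core CAAAGNNCA, the C/EBP core TTGCNNAA and the interleukin-6 element CTGGGAA.
F5: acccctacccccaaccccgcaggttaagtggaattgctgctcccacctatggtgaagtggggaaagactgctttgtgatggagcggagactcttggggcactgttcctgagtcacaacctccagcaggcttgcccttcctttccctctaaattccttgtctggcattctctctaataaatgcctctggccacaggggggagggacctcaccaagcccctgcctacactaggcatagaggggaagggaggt
Mbl2: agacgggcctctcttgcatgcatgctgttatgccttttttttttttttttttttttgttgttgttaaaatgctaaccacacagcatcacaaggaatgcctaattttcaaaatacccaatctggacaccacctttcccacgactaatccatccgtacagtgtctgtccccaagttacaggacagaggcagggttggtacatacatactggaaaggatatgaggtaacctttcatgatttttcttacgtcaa
Vtn: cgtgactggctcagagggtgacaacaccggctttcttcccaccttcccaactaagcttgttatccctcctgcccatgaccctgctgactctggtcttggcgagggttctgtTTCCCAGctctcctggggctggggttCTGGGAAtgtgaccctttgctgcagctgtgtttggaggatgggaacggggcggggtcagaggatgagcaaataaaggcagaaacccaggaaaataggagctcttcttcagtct
Plg: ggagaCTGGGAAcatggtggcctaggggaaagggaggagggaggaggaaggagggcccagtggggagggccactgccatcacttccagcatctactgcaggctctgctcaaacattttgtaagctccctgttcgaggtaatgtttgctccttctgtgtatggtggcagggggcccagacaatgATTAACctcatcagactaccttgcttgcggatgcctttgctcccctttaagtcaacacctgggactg

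F5 and Mbl2 held none of the 4 motifs in these letters, Vtn held the interleukin-6 element on both strands, and Plg held the HNF1 motif and the interleukin-6 element. No match says only that these letters are not in this window, and a match is a description of the sequence. Of the 33 measured members 27 had an entry in the promoter table, and Cpb2, Serpind1, Serping1, C8g, C9 and Masp2 are named only. The HNF1 motif stood in 9 of 27 member promoters (33.3%) and in 6.46% of the 27457 promoters in the table. The C/EBP core stood in 10 (37.0%) against 9.2% of all, the interleukin-6 element in 8 (29.6%) against 9.33%, and the HNF4 core in 2, Fga and F7 (7.41%), against 5.05%. Plg, Fga, Fgb, F2, C8a, C4bpa, C4bpb, F13b and Proc were the members with the HNF1 motif.

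The DMSO arrays of run 2 all lay above those of run 1 for 12 of 33 members (15.6% of all genes) and all below for 6 (14.9%). The run 2 mean with DMSO was 8.58 for Mbl2, 8.54 for F5, 8.52 for Serpinf2 and 10.50 for Cfi, against 7.23, 7.55, 7.79 and 10.07 for the same genes in run 1. With the group held fixed, Plg was the 1 member called between runs, 0.37 higher in run 2 (SE 0.07, adjusted p = 0.0347; 0.227% of all genes were called higher and 0.317% lower). Its adjusted p was 0.0789 without biochips 15, 23 and 24. F10 (-0.40, SE 0.10, adjusted p = 0.0945) and Fgb (0.44, SE 0.10, adjusted p = 0.0746) came next. Without those 3 biochips the members called lower in run 2 were F10 (-0.50, adjusted p = 0.0201) and Kng1 (-0.44, adjusted p = 0.0151), where 0.483% of all genes were called lower. Serping1 (-0.35, SE 0.10, adjusted p = 0.179) and Masp2 (-0.35, SE 0.11, adjusted p = 0.207) were lower in run 2 without passing the test.

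Within-run changes rest on separate arrays and can be set side by side. At 100 µM, 16 of 33 members lay below and 2 (Plg and Vtn) above DMSO in both runs. Of all 14506 genes, 3166 lay below and 4392 above in both. The share of the same sign, whichever it was, was 54.5% for the members and 52.1% over all genes. At 10 µM, 6 members lay below and 10 above in both runs, where 2947 and 3301 of all genes did. The share of the same sign was 48.5% against 43.1% over all genes. Across the 33 members the changes in the runs had a Pearson r of 0.34 at 100 µM and -0.23 at 10 µM, and over all genes 0.06 and -0.06. These are descriptions across genes of 1 set of cultures, which are not independent.

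In run 2, 15 members had both 100 µM arrays below every DMSO array (14.4% of all genes) and 4 had them above (14.8%). In run 1, 5 members were so placed below (12.1%) and 6 above (18.5%). The 15 of run 2 were F5, F10, F13b, Fga, Kng1, Klkb1, Serpinf2, Pros1, C4bpa, C8a, C9, Cfi, Masp1, Masp2 and Mbl2. At 10 µM in run 2, 5 members lay wholly above DMSO (F2, Plg, Serpind1, C8g and Vtn; 7.79% of all genes) and 5 wholly below (F5, Pros1, C8a, Cfi and Mbl2; 8.53%). In run 1, 7 lay wholly above (F12, Plg, Cpb2, Pros1, Serping1, C3 and Vtn; 13.3%) and F11 alone wholly below (12.2%), so Pros1 was on opposite sides of DMSO in the runs.

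**Figure D4:**
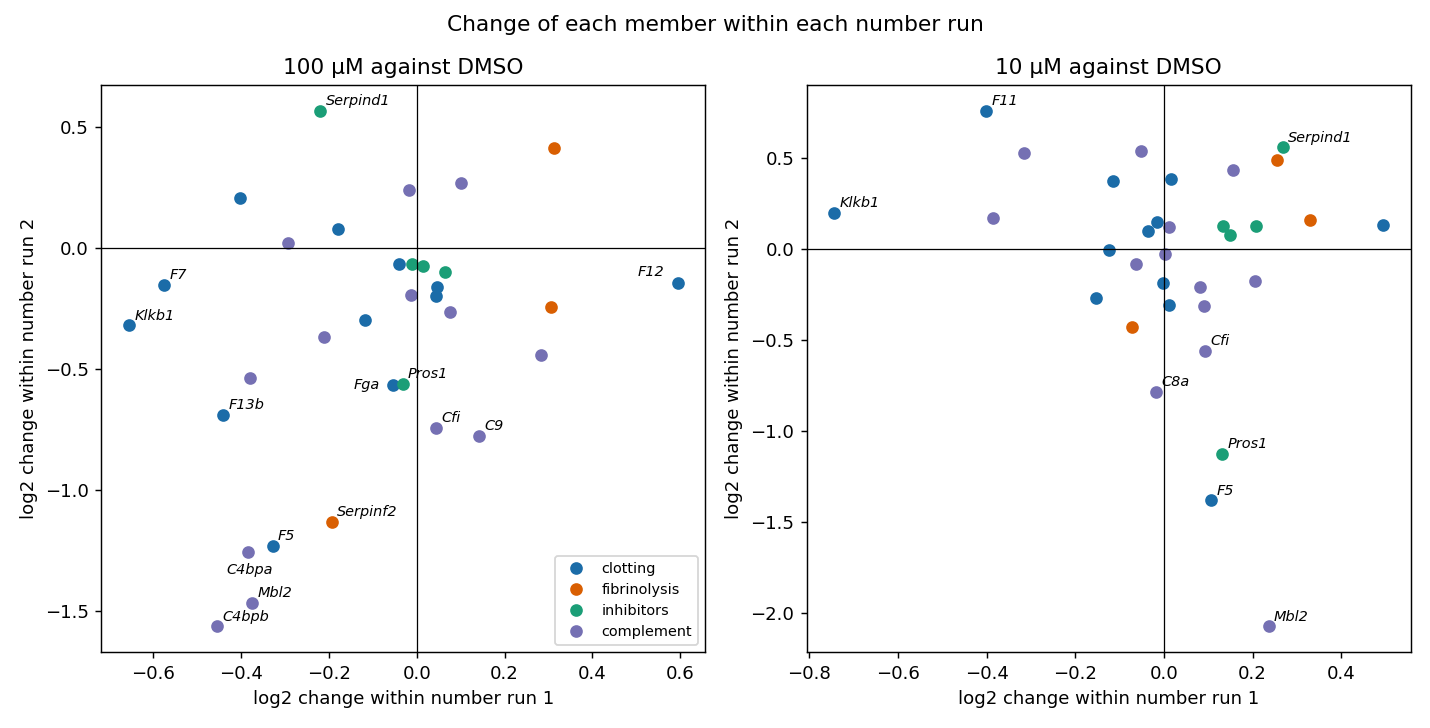
Log2 change of each member within run 1 (horizontal axis) and within run 2 (vertical axis), for 100 µM against DMSO on the left and 10 µM against DMSO on the right, coloured by role. Mbl2, C4bpb, C4bpa, F5 and Serpinf2 lie lowest in run 2 at 100 µM, and Mbl2, F5 and Pros1 lie below 0 in run 2 and above 0 in run 1 at 10 µM.

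The test of the difference between runs called no member at either dose, where it called 0.00689% of all genes as higher at 100 µM and 0.00689% as higher and 0.0345% as lower at 10 µM. At an unadjusted p under 0.05 it gave 6 members with a lower change in run 2 at 100 µM (F5, F12, Serpinf2, Cfi, Masp2 and Mbl2; 3.87% of all genes) and 1 with a higher one (Serpind1; 2.21%). At 10 µM it gave 4 lower (F5, Pros1, Cfi and Mbl2; 6.68%) and 1 higher (C8g; 3.56%). The difference at 10 µM was -1.49 for F5 (SE 0.34, adjusted p = 0.208), -1.26 for Pros1 (SE 0.26, adjusted p = 0.157) and -0.65 for Cfi (SE 0.18, adjusted p = 0.288). Without biochips 15, 23 and 24 this difference rests on biochip 16 alone for run 1 at 100 µM and on biochip 25 alone for run 2 at 10 µM. Counts for that setting are therefore not given.

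No member passed the adjusted test between the doses. Between 100 µM and 10 µM, 31 of 33 members had the lower mean at 100 µM, where 43.5% of all genes did, and only Pros1 and C6 had the higher one (56.5%). Among the 7253 brighter genes the share with the lower mean at 100 µM was 50.3%. The median log2 difference was -0.15, and that of all genes was 0.02. At an unadjusted p under 0.05 limma gave F2 alone as lower (2.09% of all genes), and F2 was also the only member without overlap (0.324%). Without biochips 15, 23 and 24 the split was 7 higher and 26 lower (46.1% of all genes were lower) and the median was -0.11. Then 0 members met the unadjusted threshold (3.15% of all genes higher and 2.17% lower). F2 was without overlap in that setting (2.24% of all genes). This had to follow from the full set, since leaving arrays out of groups that do not overlap cannot make them overlap.

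Other genes of the same chains were counted from separate lists. Of 20 other clotting and fibrinolysis genes 0 passed the adjusted test at 100 µM, 11 lay above DMSO and 9 below, and the median log2 change was 0.04. Plau, the urokinase that activates plasminogen, averaged 5.92 ± 0.33 at 100 µM (SD, n = 4), 5.65 ± 0.29 at 10 µM (SD, n = 6) and 5.36 ± 0.16 with DMSO (SD, n = 5). All its 100 µM arrays lay above DMSO, with a log2 change of 0.57 (SE 0.17, adjusted p = 0.738). Serpina10, the inhibitor that works with protein Z on factor Xa, averaged 8.39 ± 0.27, 8.43 ± 0.23 and 8.76 ± 0.10 in the same groups, and all its 100 µM arrays lay below DMSO (-0.37, SE 0.13, adjusted p = 0.738).

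Of 21 other complement genes 0 passed, 8 lay above DMSO at 100 µM and 13 below, with a median log2 change of -0.10. Cpn1 and Cpn2, the subunits of the carboxypeptidase that trims complement anaphylatoxins, had log2 changes of -0.52 (SE 0.19, adjusted p = 0.738) and -0.51 (SE 0.20, adjusted p = 0.738). Within run 1 these were 0.03 for Cpn1 and 0.07 for Cpn2, and within run 2 they were -0.92 and -0.97. The difference between runs was -0.95 for Cpn1 (SE 0.26, adjusted p = 0.663) and -1.04 for Cpn2 (SE 0.31, adjusted p = 0.716). Of 16 liver regulators and signalling genes 0 passed, 4 lay above and 12 below, with a median of -0.20. Foxa3, a liver forkhead factor, had -0.61 (SE 0.28, adjusted p = 0.772) and Onecut1, also called HNF6, -0.35 (SE 0.16, adjusted p = 0.772). Hnf4a, a regulator of many clotting genes and chosen here after its values were seen, had -0.41 at 100 µM (SE 0.22, adjusted p = 0.794) and -0.64 at 10 µM (SE 0.20, adjusted p = 0.496). At 10 µM its change was 0.02 within run 1 and -1.14 within run 2, a difference of -1.16 (SE 0.26, adjusted p = 0.208), and at 100 µM it was -0.04 and -0.61. Foxa3 at 100 µM had -0.17 within run 1 and -0.96 within run 2. The 10 hepatocyte markers had a median of 0.05, with 6 above DMSO and 4 below at 100 µM, among them Alb above and Apob below.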

How the data were processed

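Per the submitters' processing notes, RMA and Partek were used on the arrays, and the authors deposited log2 expression values for 29214 probe sets in 15 arrays. Their versions and settings were not given in the sources used here. Array medians ran from 5.38 to 5.51, and values were used without further normalization. Arrays have no read depth, so their number limits the precision, and no background or detection value was used. Of the probe sets, 15310 carried 1 gene symbol (15279 matched RefSeq gene identifiers of GRCr8), 323 several and the others none, and 13904 were left out. For 527 genes the probe set of highest mean was taken, which left 14506 genes. The table held 0 columns of other samples.

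limma 3.58.1 in R 4.3.3 fitted the 3 groups on all 15 arrays without a covariate, since the labels state none, and called genes at a Benjamini-Hochberg adjusted p under 0.05. The number run entered as a block, as separate fits and as an interaction. Residuals of arrays in unlike groups correlated at a median of 0.06 within a run and -0.06 across runs (37 pairs each). Other alternatives left out biochips 15, 23 and 24, each array in turn or dim genes (those below the median of gene means), or weighted arrays by quality. On simulated data with 14506 genes, 62.7%, 85.1% and 100% of genes changed 1.5-fold, 2-fold and 4-fold were recovered at 100 µM against DMSO, and 70.1%, 89.6% and 100% at 10 µM. The noise there was drawn independently for each gene, with the same spread on all arrays and no difference between the number runs. That spread came from a fit with a run term, which the fit of the 3 groups lacks. These shares may therefore be too high for the real arrays.

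The members, roles and other lists were chosen with earlier results of these data known. Named with values in every array were the 2 members of each role with the lowest unadjusted p at 100 µM, the 1 with the lowest at 10 µM and between runs, and Plg, F2, Fga, Fgb, Fgg, C3 and Serpinc1. Of each list of other pathway genes and regulators the 2 of lowest p at 100 µM were named. Promoter sequences came from RefSeq (GRCr8). Protein sequences were not used here.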

Additional observations from a re-analysis of the deposited data

Results flagged for a closer look

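In 8 of 99 sets of values of 1 member in 1 group, the end array lay farther from the others than a Dixon test at the 95% level allows, and chance gives about 1 in 20. All 8 were in the 10 µM group, 5 of them on biochip 23, 2 on biochip 25 and 1 on biochip 24. The same share over all genes was not computed, and biochip 23 stood apart over all genes (quality weight 0.208). The count therefore cannot be read as particular to the members. On biochip 23, F11 had a log2 level of 7.96 (other 10 µM arrays 6.14 to 6.43), Fga 11.8 (11.00 to 11.24), Fgg 12.7 (11.81 to 12.09), Klkb1 6.61 (4.49 to 5.21) and Masp1 7.84 (5.73 to 6.50). On biochip 24, F2 had 10.00 (others 9.54 to 9.71). On biochip 25, Cpb2 had 8.89 (others 9.27 to 9.47) and Cfi 9.73 (others 10.05 to 10.22). F11, the contact pathway protease, had a log2 change at 10 µM of -0.40 within run 1 and 0.76 within run 2, where biochip 23 lies.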

How the results depend on the processing

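No paired analysis was possible because the title numbers are unique to each array. With the number run as a block, as with each run alone, no member was called at 100 µM against DMSO. The count of genes called at 100 µM against DMSO was 1 in run 2 alone. At 10 µM against DMSO it was 7 in run 2 alone and 2 with array weights, and 0 to 1 when each array was left out in turn. Between runs 79 genes were called, 191 with array weights and 37 to 129 when arrays were left out. For Plg this call was lost without any 1 of 11 arrays. Without biochip 23, Serping1 was called lower in run 2 (-0.42, adjusted p = 0.031). Differences of the dose effect between runs were called for 1 gene at 100 µM and 6 at 10 µM, and, in alternatives chosen after seeing the data, for 5 and 3 without biochips 15, 23 and 24 and for 2 and 34 with array weights. The median log2 change of fibrinolysis genes at 100 µM was 0.31 in run 1 and -0.24 in run 2, and -0.09 to 0.21 when arrays were left out. That of complement genes was -0.018 in run 1, and -0.41 to -0.19 when arrays were left out.

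Some changes turned sign. F5 at 10 µM (-0.74 over all arrays) and Cfi at 100 µM (-0.39) were 0.11 and 0.044 in run 1 alone. At 100 µM, Fgb had 0.044, Serpind1 -0.22, C3 0.075 and Serpinc1 0.015 in run 1 alone. F2 at 100 µM had 0.078 in run 2 alone, 0.011 without biochips 15, 23 and 24 and 0.016 with array weights. When arrays were left out, F2 ran from -0.12 to 0.030, Fgg from -0.089 to 0.029 and Serpind1 from -0.025 to 0.31. The causes were not tested. With 4 to 6 arrays in a group and 2 to 3 in a run, 1.5-fold and 2-fold changes were recovered only in part even in the simulated data. A member that missed the threshold is not shown to be unaltered.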
